A study of Mus musculus with 16 samples.

Results

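The H2 complex is the major histocompatibility complex (MHC) of the mouse and lies on chromosome 17. Here 7 of its class I heavy chain genes (H2-K1, H2-D1, H2-Q2, H2-Q7, H2-Q10, H2-T23 and H2-M3) and 3 genes placed among them (Atp6v1g2, Ddx39b and Tcf19) were followed across 16 one-colour microarrays of mouse hippocampus. The 10 genes, of 17178 named on the array, are represented by 20 of its 41174 non-control probes, found through the RefSeq transcript given for each probe. These genes were picked with their strain differences in these same arrays already known, so strain differences are given below as a description, with no p-value. SAM/P-8 and SAM/R-1 are sister inbred lines of the senescence-accelerated mouse series, derived from AKR/J stock, and in general use SAM/P-8 serves as a model of early memory decline and SAM/R-1 as its control. All mice were male. From 8 weeks of age they were fed for 8 weeks either the rodent chow CE-2 alone (the control diet) or CE-2 with 0.1% coral calcium hydride (CCH). The 4 groups, SAM/P-8 control, SAM/P-8 CCH, SAM/R-1 control and SAM/R-1 CCH, hold 4 arrays each. The labels number these as replicates and do not say whether each came from a separate mouse, so the spread between them may be partly technical.

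Class I molecules pair a heavy chain with beta-2-microglobulin and carry peptides from inside the cell to its surface, where T cells and natural killer cells read them. The proteasome cuts those peptides, the TAP transporter moves them into the endoplasmic reticulum, and interferon raises transcription of the heavy chains and of this supply line. In the brain, class I messenger RNA is found in endothelial cells, in microglia and in neurons, where class I proteins and the receptor PirB have been tied to synaptic plasticity. Heavy chain genes are close copies of one another and differ greatly between inbred strains.

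Promoters of the heavy chains show how closely these copies resemble one another, and windows of 65 bases are printed for the 6 genes that hold the enhancer A core, a shared 11-base string or the interferon response element. Sequences are RefSeq promoters of the GRCm38.p6 build, from the C57BL/6J reference and not from the SAM lines, read 5′ to 3′ on the gene's own strand, with capitals for those 3 motifs. All 10 genes had a promoter in the table.
H2-K1, chr17:34000419-34000483, minus strand: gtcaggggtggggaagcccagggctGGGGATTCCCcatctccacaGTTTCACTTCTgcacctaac
H2-D1, chr17:35262898-35262962, plus strand: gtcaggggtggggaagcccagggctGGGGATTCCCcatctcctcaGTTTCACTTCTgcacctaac
H2-Q10, chr17:35469888-35469952, plus strand: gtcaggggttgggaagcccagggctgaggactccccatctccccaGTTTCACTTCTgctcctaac
H2-Q7, chr17:35438996-35439060, plus strand: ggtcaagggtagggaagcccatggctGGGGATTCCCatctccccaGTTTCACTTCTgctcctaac
H2-M3, chr17:37270087-37270151, plus strand: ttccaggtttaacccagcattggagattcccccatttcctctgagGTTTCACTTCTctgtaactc
H2-T23, chr17:36032806-36032870, minus strand: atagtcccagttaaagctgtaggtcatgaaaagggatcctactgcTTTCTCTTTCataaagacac
With no gaps allowed, the H2-D1 window equals that of H2-K1 at 64 of 65 positions and the H2-Q10 window at 60 of 65. The H2-Q7, H2-M3 and H2-T23 windows had fewer equal positions, at 43, 24 and 21 of 65. In the H2-Q7 window the enhancer A core starts a base later, so the bases up to its end are compared out of step. Its count therefore understates how alike the windows are. The H2-T23 window is placed on a different motif, so its count does not compare matching sites. The enhancer A core, the first run of capitals in the H2-K1, H2-D1 and H2-Q7 windows, was present in the promoters of H2-K1, H2-D1 and H2-Q7 and in 0.107% of the 32851 promoters in the table, each running from 250 before the start site to 50 after it. GTTTCACTTCT, the longest string shared by a set of promoters picked after these sequences were seen, was present in H2-K1, H2-D1, H2-Q7, H2-Q10 and H2-M3 and in 0.0578% of all promoters. The interferon response element was searched as 2 GAAA tetramers 2 bases apart and is capitalised in the H2-T23 window as its complement. An exact match was found in H2-T23 alone among the 10 genes and in 3.44% of all promoters. Looser forms of the element were not searched, so a promoter without this match may still hold one. Shorter motifs were more common: TGACG, the X2 or CRE core, stood in 5 of the 10 genes and 20.8% of all promoters, and CCAAT in 7 of the 10 and 37.4% of all promoters. Both strands were searched, and no motif overlapped another in the printed windows. A match shows the letters and not a bound site.

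Signals are given, in the order of replicates 1 to 4, as log2 of the processed signal minus the 75th percentile of its array, so a value of 0 is as bright as that percentile. Per array, 28920 to 33333 of 43379 non-control spots stood well above the background. Of the 20 probes, 17 cleared the background on every array and entered the fit, 12 of them for class I genes. The other 3, A_51_P230267 and A_51_P230269 of H2-Q10 and A_52_P490263 of H2-M3, were too dim. All 4 arrays of a group shared 1 slide and no slide held 2 groups, and an effect of the slide cannot be told apart from that of the group. The 13 hippocampal neuron markers with a probe also cleared it on every array. In whole tissue, fewer cells of a type and less RNA per cell cannot be told apart.

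H2-K1, a classical heavy chain that presents peptides to CD8 T cells, had the widest strain differences of the 10 genes, and its probes did not agree. Probe A_52_P50496 read -0.54, -0.84, -0.85 and -1.09 on the SAM/P-8 control arrays and -0.53, -0.72, -0.98 and -0.36 on the SAM/P-8 CCH arrays. The SAM/R-1 readings were -2.25, -1.97, -2.40 and -2.50 on the SAM/R-1 control arrays and -2.18, -2.43, -2.45 and -2.17 on the SAM/R-1 CCH arrays. Every SAM/P-8 array was above every SAM/R-1 array. The SAM/P-8 mean was higher by 1.45 ± 0.15 (log2, SE, 4 arrays a group) on the control diet and by 1.66 ± 0.15 on the CCH diet, or 2.73-fold and 3.17-fold. Probe A_52_P474242 read -1.06, -1.19, -1.21 and -1.51 on the SAM/P-8 control arrays and -0.90, -1.18, -1.15 and -0.66 on the SAM/P-8 CCH arrays. In SAM/R-1 mice it gave -1.88, -1.68, -2.03 and -1.98 on the SAM/R-1 control arrays and -1.78, -2.07, -1.87 and -1.68 on the SAM/R-1 CCH arrays. These groups too were apart on both diets, by 0.65 ± 0.13 and 0.88 ± 0.13. The third H2-K1 probe, A_51_P198434, is spotted 10 times on each array, and its mean ran the other way. It read 1.04, 0.56, 0.70 and 0.21 on the SAM/P-8 control arrays and 0.70, 0.46, 0.22 and 0.85 on the SAM/P-8 CCH arrays. SAM/R-1 values were 0.98, 1.24, 0.98 and 0.82 on the SAM/R-1 control arrays and 1.18, 0.80, 0.81 and 1.02 on the SAM/R-1 CCH arrays. The groups overlapped on both diets, and the SAM/P-8 minus SAM/R-1 difference was -0.38 ± 0.17 on the control diet and -0.40 ± 0.17 on the CCH diet. Probe sequences were not used here, and a strain variant under a probe, a probe that also binds a near-identical class I transcript and a different level of H2-K1 transcript cannot be told apart from these values.

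H2-D1, the other classical heavy chain, also had a pair of probes with unlike strain differences. Probe A_52_P313279 read 1.58, 1.23, 1.33 and 0.99 on the SAM/P-8 control arrays and 1.61, 1.27, 1.27 and 1.70 on the SAM/P-8 CCH arrays. The SAM/R-1 mice gave 0.72, 0.85, 0.71 and 0.63 on the SAM/R-1 control arrays and 0.82, 0.78, 0.75 and 0.93 on the SAM/R-1 CCH arrays. All 8 SAM/P-8 values lay above all 8 SAM/R-1 values. Its SAM/P-8 minus SAM/R-1 difference was 0.56 ± 0.12 on the control diet and 0.65 ± 0.12 on the CCH diet. Probe A_51_P496996 read 0.94, 0.59, 0.71 and 0.29 on the SAM/P-8 control arrays and 0.86, 0.58, 0.50 and 1.01 on the SAM/P-8 CCH arrays. The SAM/R-1 readings were 0.64, 0.82, 0.72 and 0.60 on the SAM/R-1 control arrays and 0.81, 0.68, 0.65 and 0.87 on the SAM/R-1 CCH arrays. Here the groups overlapped, with SAM/P-8 arrays both above and below the SAM/R-1 range, and the difference was -0.06 ± 0.13 and -0.01 ± 0.13.

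**Figure D1:**
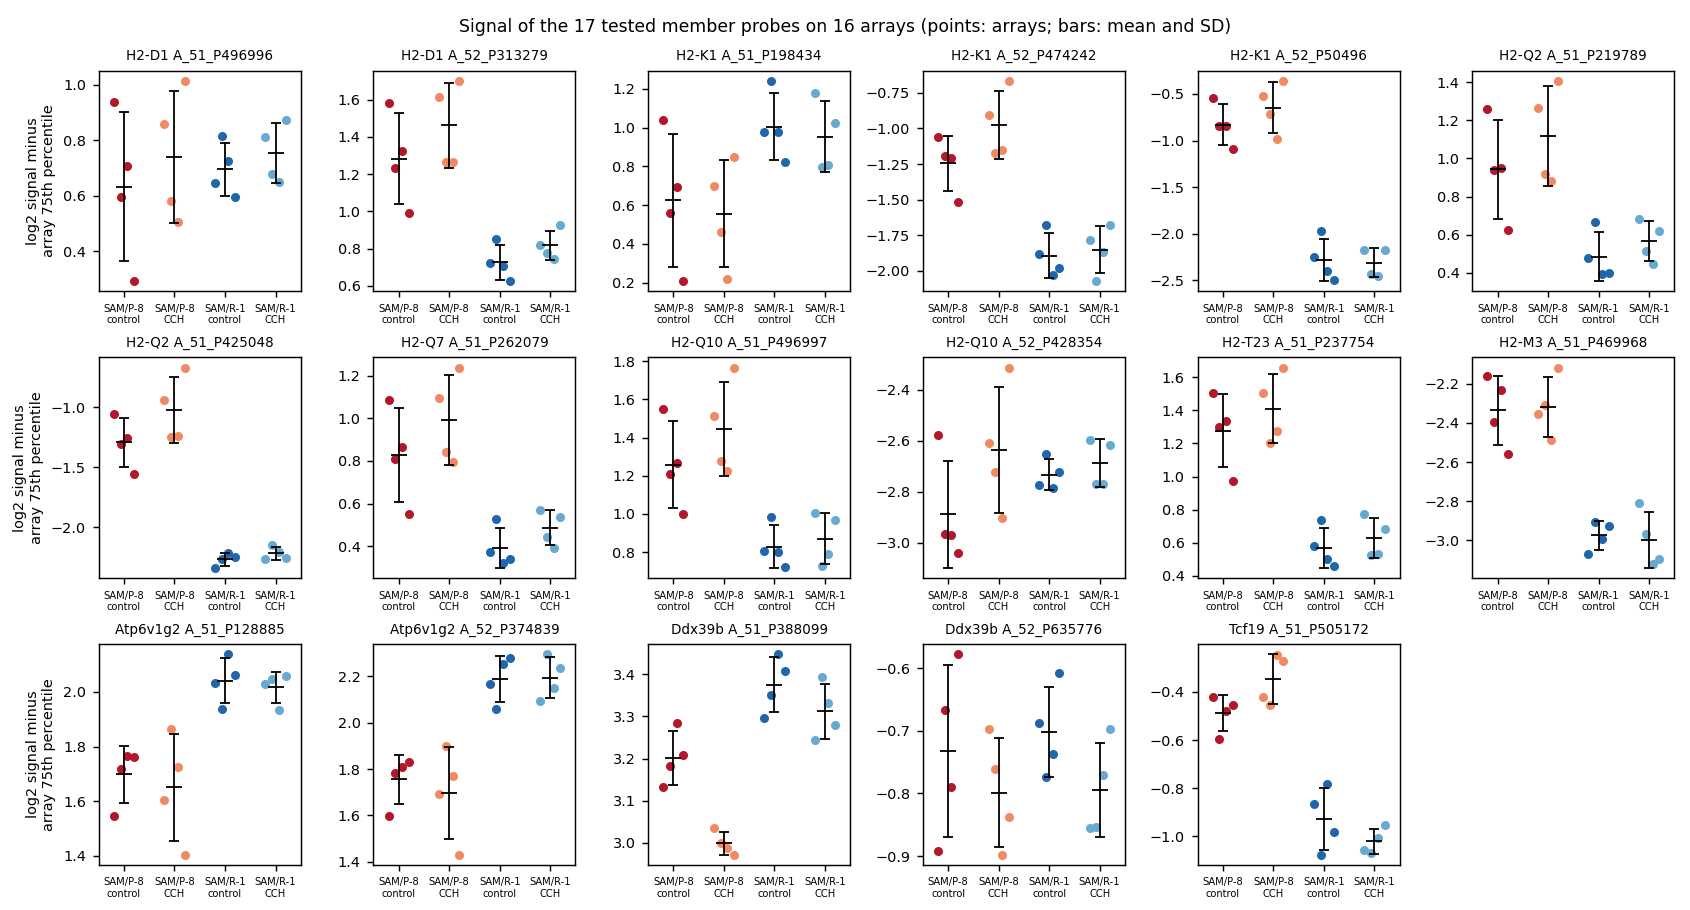
Level of each tested probe on each array, as log2 processed signal minus the array's 75th percentile, with 1 panel per probe, points for the 4 arrays of each group and bars for the group mean and SD. Probes of 1 gene can differ: A_52_P50496 of H2-K1 is higher on all 8 SAM/P-8 arrays and A_51_P198434 of H2-K1 overlaps between the strains.

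The Q region holds non-classical genes. Its H2-Q7 encodes a Qa-2 heavy chain held in the membrane by a lipid anchor, and H2-Q10 encodes a secreted heavy chain made mainly in liver. Probe A_51_P425048 of H2-Q2, a further Q region heavy chain, read -1.06, -1.30, -1.26 and -1.56 on the SAM/P-8 control arrays and -0.94, -1.24, -1.24 and -0.67 on the SAM/P-8 CCH arrays. In SAM/R-1 mice it gave -2.34, -2.26, -2.21 and -2.25 on the SAM/R-1 control arrays and -2.26, -2.14, -2.21 and -2.26 on the SAM/R-1 CCH arrays. The strains were apart on both diets, by 0.97 ± 0.12 and 1.19 ± 0.12, and the 8 SAM/R-1 values lay close together. The second H2-Q2 probe, A_51_P219789, differed by 0.46 ± 0.13 and 0.55 ± 0.13. Its SAM/P-8 control values ran from 0.63 to 1.26 and met the SAM/R-1 control range, 0.39 to 0.67, while the groups were apart on the CCH diet.

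H2-Q7 probe A_51_P262079, also spotted 10 times, read 1.09, 0.81, 0.86 and 0.55 on the SAM/P-8 control arrays and 1.09, 0.84, 0.80 and 1.24 on the SAM/P-8 CCH arrays. SAM/R-1 values were 0.37, 0.53, 0.32 and 0.34 on the SAM/R-1 control arrays and 0.57, 0.44, 0.39 and 0.54 on the SAM/R-1 CCH arrays. No SAM/R-1 array reached the lowest SAM/P-8 array of its diet, and the differences were 0.44 ± 0.11 and 0.51 ± 0.11. For H2-Q10 the 4 probes did not agree. Probe A_51_P496997 was bright and higher in SAM/P-8 by 0.43 ± 0.13 and 0.57 ± 0.13, with the groups apart on both diets. Probe A_52_P428354 read -3.04 to -2.31 over the 16 arrays, with overlapping groups and differences of -0.16 ± 0.12 and 0.05 ± 0.12. A_51_P230267 and A_51_P230269 were not well above background on any of the 16 arrays. Whether the bright H2-Q10 probe read H2-Q10 or another class I transcript was not tested.

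H2-T23 encodes the heavy chain of Qa-1, which shows leader peptides of other class I chains to the CD94/NKG2 receptors of natural killer cells. Its 1 probe, A_51_P237754, read 1.50, 1.30, 1.33 and 0.97 on the SAM/P-8 control arrays and 1.51, 1.20, 1.28 and 1.66 on the SAM/P-8 CCH arrays. The SAM/R-1 mice gave 0.58, 0.73, 0.50 and 0.46 on the SAM/R-1 control arrays and 0.77, 0.53, 0.53 and 0.68 on the SAM/R-1 CCH arrays. Its lowest SAM/P-8 value, 0.97 on control replicate 4, was above its highest SAM/R-1 value, 0.77. The difference was 0.71 ± 0.12 on the control diet and 0.78 ± 0.12 on the CCH diet, or 1.63-fold and 1.72-fold. H2-M3, which presents N-formylated peptides, lies farthest along the block. Probe A_51_P469968 read -2.16, -2.39, -2.23 and -2.56 on the SAM/P-8 control arrays and -2.35, -2.31, -2.49 and -2.12 on the SAM/P-8 CCH arrays. The SAM/R-1 readings were -3.07, -2.91, -2.99 and -2.93 on the SAM/R-1 control arrays and -2.81, -2.97, -3.12 and -3.10 on the SAM/R-1 CCH arrays. The strains did not overlap, and the differences were 0.64 ± 0.10 and 0.68 ± 0.10. With the normexp background they were 0.49 and 0.35 and were called on neither diet. The dim second H2-M3 probe, A_52_P490263, was well above background on 3 SAM/P-8 control, 2 SAM/P-8 CCH, 0 SAM/R-1 control and 2 SAM/R-1 CCH arrays and was left out of the fit.

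The neighbours of the class I genes did not share 1 direction. Tcf19, a forkhead-associated domain protein first found as a growth-regulated gene, was read by A_51_P505172 at -0.42, -0.59, -0.48 and -0.46 on the SAM/P-8 control arrays and -0.42, -0.45, -0.25 and -0.27 on the SAM/P-8 CCH arrays. In SAM/R-1 mice it gave -0.87, -1.08, -0.78 and -0.98 on the SAM/R-1 control arrays and -1.06, -1.07, -1.01 and -0.95 on the SAM/R-1 CCH arrays. The groups were apart, with SAM/P-8 higher by 0.44 ± 0.07 on the control diet and 0.67 ± 0.07 on the CCH diet. Atp6v1g2, a subunit of the proton-pumping V-ATPase found mainly in neurons, was lower in SAM/P-8 by both probes. Probe A_52_P374839 read 1.60, 1.78, 1.81 and 1.83 on the SAM/P-8 control arrays and 1.69, 1.90, 1.77 and 1.43 on the SAM/P-8 CCH arrays. SAM/R-1 values were 2.17, 2.06, 2.25 and 2.28 on the SAM/R-1 control arrays and 2.09, 2.29, 2.15 and 2.24 on the SAM/R-1 CCH arrays. All SAM/P-8 values were below all SAM/R-1 values, with differences of -0.43 ± 0.09 and -0.50 ± 0.09, and A_51_P128885 gave -0.34 ± 0.09 and -0.37 ± 0.09. Ddx39b, an RNA helicase of messenger RNA splicing and export, differed by -0.17 ± 0.05 and -0.31 ± 0.05 with probe A_51_P388099. Its groups were apart on both diets. The second Ddx39b probe, A_52_P635776, gave -0.03 ± 0.07 and 0.00 ± 0.07 with overlapping groups.

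Over the 12 tested class I probes, 9 were called higher in SAM/P-8 and 0 lower on the control diet, and the same counts held on the CCH diet (limma, adjusted p under 0.05). Of all 29003 probes tested, 6.02% were called higher and 7.76% lower on the control diet, 13.8% in all, and 6.38% and 7.07% on the CCH diet, 13.4% in all. Of the 5 neighbour probes, 1 was called higher and 3 lower on each diet. Groups that did not overlap, with SAM/P-8 higher, were seen for 9 of the 17 member probes on the control diet and 10 on the CCH diet, and with SAM/P-8 lower for 3 on each. The same held for 8.25% and 8.95% of all probes higher and 11.2% and 11.6% lower. The median class I difference was 0.51 on the control diet and 0.61 on the CCH diet, and the median over all probes -0.02 on both. As the genes were chosen on this contrast, nothing is read from these counts.

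**Figure D2:**
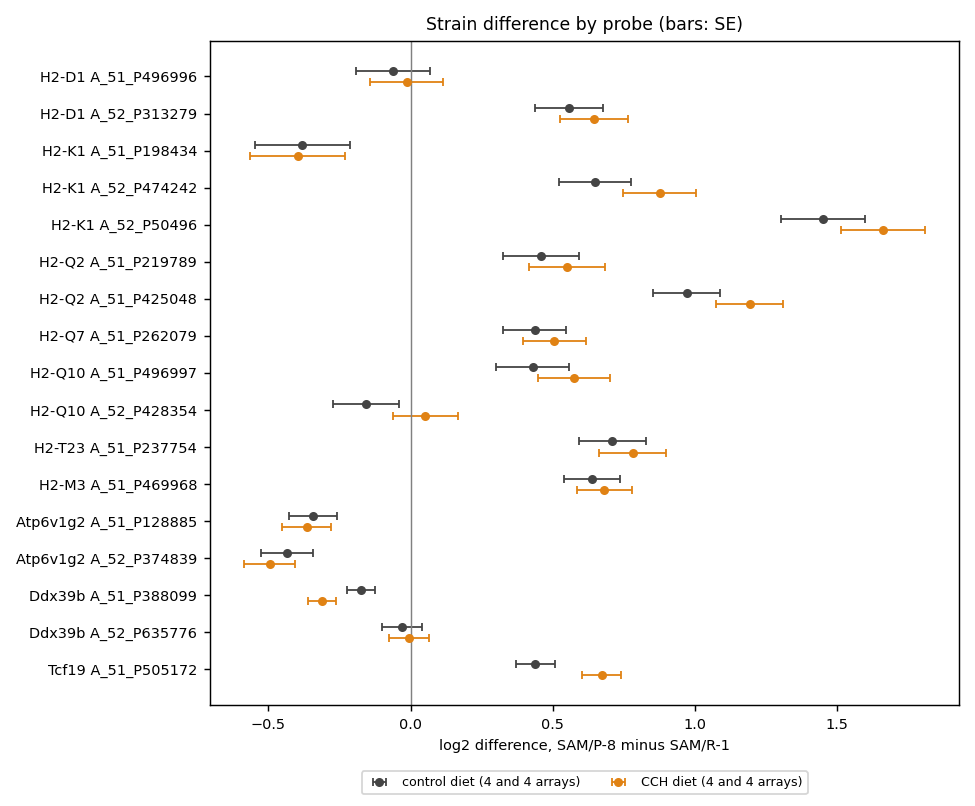
SAM/P-8 minus SAM/R-1 difference (log2) of each tested probe on the control and the CCH diet, with bars for the SE from the fit over 16 arrays. H2-K1 spans 1.45 to -0.38 on the control diet between its 3 probes, and Atp6v1g2 lies below 0 with both.

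Within the groups the class I probes varied together from array to array. For each probe the group mean was taken off, so neither the strain differences that chose the genes nor the diet differences enter. Over the 16 arrays the 66 pairs of class I probes had Pearson correlations of 0.567 to 0.995 with a median of 0.896, the highest between A_51_P219789 of H2-Q2 and A_51_P262079 of H2-Q7. The H2-D1 probes, with unlike strain differences, correlated at 0.979. The 60 pairs of a class I and a neighbour probe had a median of -0.44, and the Atp6v1g2 probes correlated with the class I mean at -0.75 and -0.81. These are descriptions: the probes share arrays and may share transcripts.

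The mean class I deviation was 0.28, -0.03, 0.03 and -0.28 in SAM/P-8 control replicates 1 to 4 and 0.09, -0.15, -0.23 and 0.28 in SAM/P-8 CCH replicates 1 to 4. It was -0.02, 0.15, -0.05 and -0.08 in SAM/R-1 control and 0.10, -0.08, -0.09 and 0.07 in SAM/R-1 CCH. SAM/P-8 control replicate 1 and SAM/P-8 CCH replicate 4 were thus the highest and SAM/P-8 control replicate 4 and SAM/P-8 CCH replicate 3 the lowest. Compared with SAM/R-1, the SD between arrays was larger in SAM/P-8 for 11 of 12 class I probes on the control diet and 12 of 12 on the CCH diet, against 57.5% and 59.4% of all probes. The median class I SD was 0.22 and 0.24 in SAM/P-8 control and CCH and 0.10 and 0.11 in SAM/R-1 control and CCH. Over all probes these medians were 0.12, 0.12, 0.11 and 0.10. No test was made of this difference in spread, and the class I probes, which varied together, are not separate observations of it.

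**Figure D3:**
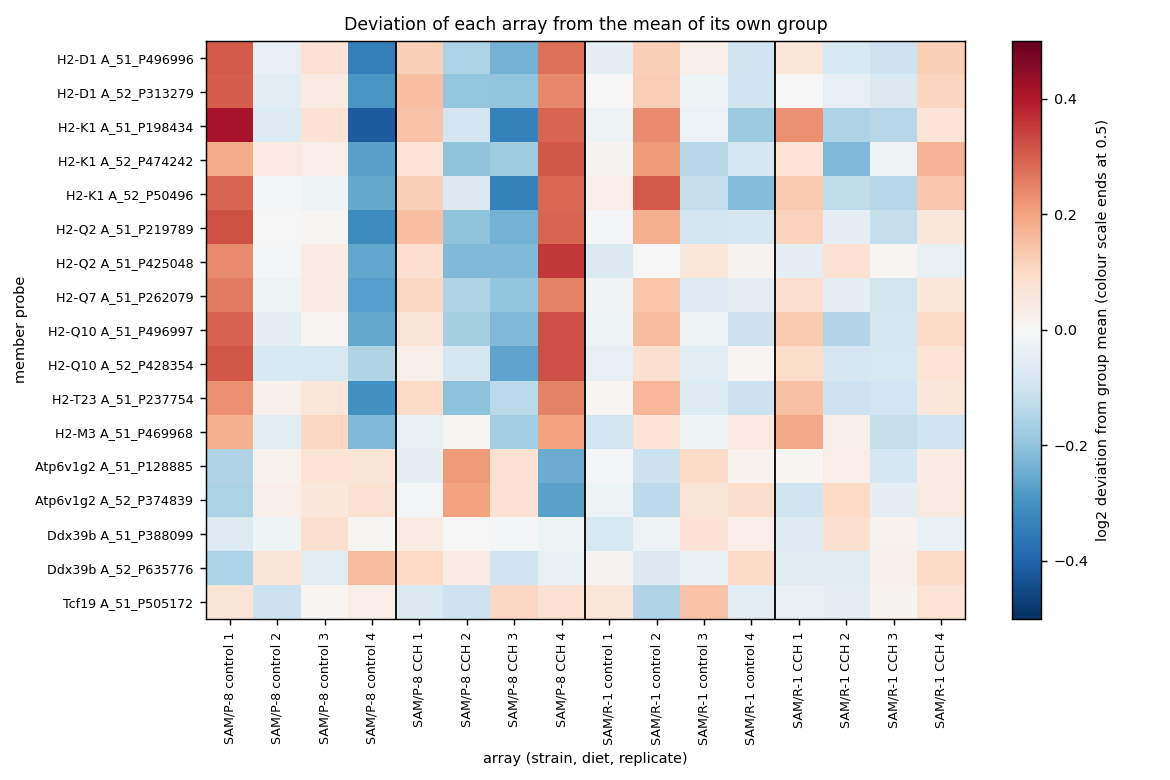
Deviation of each tested probe from its group mean (log2) on each of the 16 arrays, with probes in rows and arrays in columns. All 12 class I probes are above their group mean in SAM/P-8 control replicate 1 and SAM/P-8 CCH replicate 4, where both Atp6v1g2 probes are below it, and none is in SAM/P-8 control replicate 4 and SAM/P-8 CCH replicate 3. All 12 are also above it in SAM/R-1 control replicate 2. Signs are mixed on the remaining arrays, such as 10 of 12 above in SAM/P-8 control replicate 3.

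Some marker lists of other cell types were higher in SAM/P-8, as the class I genes were, or varied with them between SAM/P-8 arrays, and their part in the results was not tested. A list's score on an array is the mean, over its tested genes, of the value minus that gene's mean over 16 arrays. The class I score was 0.47, 0.16, 0.22 and -0.09 in SAM/P-8 control, 0.44, 0.20, 0.12 and 0.63 in SAM/P-8 CCH, and -0.37 to -0.14 and -0.34 to -0.15 in the SAM/R-1 groups. The meninges and fibroblast score, over 12 genes all well above background, was 0.89, -0.08, 0.26 and -0.41 in SAM/P-8 control and 0.82, 0.01, 0.21 and 0.71 in SAM/P-8 CCH. In SAM/R-1 it lay between -0.66 and 0.05 on the control diet and between -0.39 and -0.09 on the CCH diet. Like class I, it was highest in SAM/P-8 control replicate 1 and in SAM/P-8 CCH replicates 1 and 4, and, among SAM/P-8 arrays, lowest in SAM/P-8 control replicate 4. Its lowest SAM/P-8 CCH array was replicate 2, where for class I it was replicate 3. The choroid plexus score was -1.99 in SAM/P-8 control replicate 4 and -3.10 in SAM/P-8 CCH replicate 3, the lowest class I arrays of those groups. On the other SAM/P-8 arrays it lay between 0.85 and 1.75. In SAM/R-1 it was -1.28 in control replicate 4, -2.80 and -2.22 in CCH replicates 2 and 3, and 0.28 to 1.44 elsewhere. The macrophage and dendritic score, with 5 of 10 genes well above background on all arrays and the dendritic marker Cd209a on 0, ran from -0.03 to 1.01 in SAM/P-8 control and 0.24 to 0.80 in SAM/P-8 CCH. Its SAM/R-1 range was -0.70 to -0.12 on the control diet and -0.71 to -0.23 on the CCH diet. The endothelial and pericyte score, with 19 of 20 genes well above background on all arrays, was 0.13 to 0.59 and 0.15 to 0.49 in SAM/P-8 control and CCH and -0.61 to -0.21 and -0.29 to -0.08 in SAM/R-1. The interferon-induced score had the same order of strains, 0.40 to 0.86 and 0.36 to 1.42 against -0.85 to -0.51 and -0.80 to -0.54. Few meninges and fibroblast genes were called between the strains, 1 of 12 on the control diet and 2 on the CCH diet. For endothelial and pericyte genes 15 and 8 of 20 were called, and for macrophage and dendritic genes 5 and 4 of 9 tested. All of these were called higher in SAM/P-8, where 6.18% and 6.1% of all genes were. The median differences of the 3 lists were 0.66 and 0.68, 0.53 and 0.35, and 0.83 and 1.07. The microglia, astrocyte, oligodendrocyte and hippocampal neuron lists had small median differences between the strains. The median difference was 0.07 and 0.12 for microglia and 0.04 and -0.05 for astrocytes. It was -0.10 and 0.02 for oligodendrocytes and 0.08 and -0.01 for hippocampal neurons. Choroid plexus and red blood cell lists had larger medians, 0.25 and 0.80 and 1.24 and 0.48, with no gene called on either diet. The red blood cell score was 1.45 and 2.09 in SAM/P-8 control replicates 1 and 2 and -0.86 to 0.23 on the other arrays. Despite the small medians, 3 and 7 of 19 microglia genes were called higher, where 6.18% and 6.1% of all genes were. No striatum gene was called on either diet, with a median difference of -0.18 and 1.02. The striatum score reached 3.85 in SAM/P-8 CCH replicate 4, with 9 of 11 genes well above background on all arrays, and lay between -0.72 and 0.26 on the other 15 arrays. Without that array the median class I strain difference on the CCH diet was 0.52, and without SAM/P-8 control replicate 1 that on the control diet was 0.41. Of the T and natural killer cell markers with a probe, Cd3g, Cd8a, Nkg7, Gzma and Ncr1 were not well above background on any array.

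Outside the 10 genes, the named genes whose deviations ran most like the mean class I deviation over the 16 arrays were Il17rc, a receptor subunit for interleukin-17, at r = 0.963, Vstm4, an immunoglobulin-domain protein, at 0.955, Timp3, a metalloproteinase inhibitor, at 0.952, Hspb8, a small heat shock protein, at 0.936, and H2-T22, a non-classical class I heavy chain, at 0.923.

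The CCH diet was not used to choose the genes, and no member probe passed the test of its effect in either strain alone. In SAM/P-8, 0 of 17 were called by limma, with 3 under 0.05 before adjustment, against 0.828% of all probes called and 19.1% under 0.05 before adjustment. Of the 12 class I probes, 11 had a positive CCH minus control difference in SAM/P-8, with a median of 0.18 and a range of -0.07 to 0.27, where 48.7% of all probes were positive. The class I probes varied together within groups (median r 0.896), so their signs are not separate observations of the diet. The 2 diets were also on different slides. The median class I difference was 0.08 without SAM/P-8 control replicate 4, 0.08 without SAM/P-8 CCH replicate 4 and 0.28 without SAM/P-8 control replicate 1. H2-Q2 probe A_51_P425048 differed by 0.27 ± 0.12 (95% interval 0.02 to 0.52, limma adjusted p = 0.237). H2-K1 probe A_52_P474242 differed by 0.27 ± 0.13 (95% interval 0.00 to 0.54, limma adjusted p = 0.267). H2-T23 differed by 0.13 ± 0.12 (95% interval -0.12 to 0.38, limma adjusted p = 0.563). Over the 12 class I probes the 95% intervals reached from -0.43 to 0.54. Missing the threshold does not show that CCH left these genes unchanged.

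In SAM/R-1, 0 of 17 were called by limma, with 0 under 0.05 before adjustment, against 0.114% and 10.9% of all probes, and the class I median was 0.05. Leaving out 1 array moved that median between 0.02, without SAM/R-1 CCH replicate 1 or 4, and 0.10, without SAM/R-1 control replicate 2. It was 0.03 without SAM/R-1 control replicate 4, and 0.07 and 0.09 without SAM/R-1 CCH replicates 3 and 2. The strain by diet interaction, which asks whether the strain difference changes with diet, gave 0 limma calls among the 17, with 1 under 0.05 before adjustment, against 0.162% and 5.6% of all probes, with a lowest adjusted p of 0.855. For H2-K1 probe A_52_P50496 it was 0.21 ± 0.21 (95% interval -0.24 to 0.66). The effect averaged over both strains called 1 member probe, A_51_P388099 of Ddx39b, at -0.13 ± 0.03 (limma adjusted p = 0.0478), against 4.16% of all probes. It read 3.13, 3.18, 3.28 and 3.21 on the SAM/P-8 control arrays and 3.04, 3.00, 2.99 and 2.97 on the SAM/P-8 CCH arrays. The SAM/R-1 mice gave 3.30, 3.35, 3.45 and 3.41 on the SAM/R-1 control arrays and 3.24, 3.39, 3.33 and 3.28 on the SAM/R-1 CCH arrays. In SAM/P-8 the 4 CCH values were below the 4 control values, as for 5.24% of all probes, and the effect was -0.20 ± 0.05 (limma adjusted p = 0.0675). In SAM/R-1 the diets overlapped and it was -0.06 ± 0.05. The averaged call was lost with the normexp background, with quantile normalization and without 1 array for 13 of the 16 arrays, the other 3 being SAM/P-8 control replicate 1, SAM/R-1 control replicate 1 and SAM/R-1 CCH replicate 2. The second Ddx39b probe gave -0.08 ± 0.05 (limma adjusted p = 0.348).

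**Figure D4:**
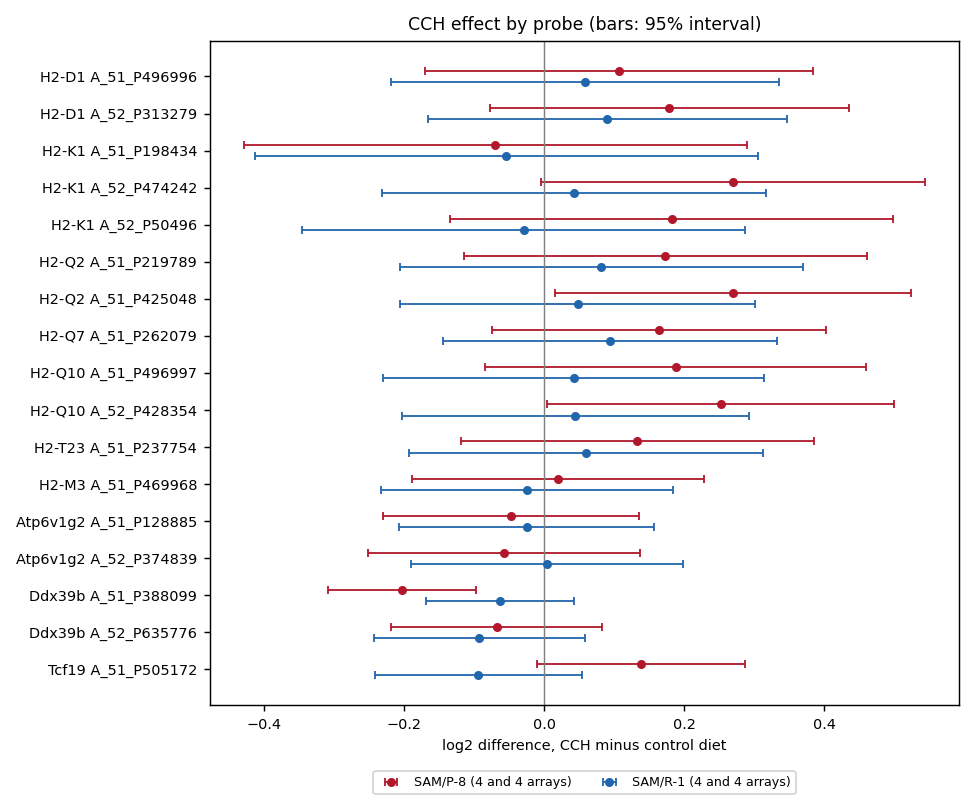
CCH minus control difference (log2) of each tested probe in SAM/P-8 and in SAM/R-1, with its 95% interval from the fit over 16 arrays. The class I probes lie between -0.07 and 0.27 in SAM/P-8, and A_51_P388099 of Ddx39b is at -0.20.

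Other genes of the class I pathway were counted by lists that had been drawn up with earlier results of these arrays known, each gene by its tested probe with the highest mean signal. On the gene level 6.18% of 13455 genes were called higher and 6.61% lower in SAM/P-8 on the control diet, and 6.1% and 6.5% on the CCH diet. Of 17 tested peptide supply and loading genes, 5 were called higher on the control diet, 6 on the CCH diet and 0 lower on either. Psmb8, an immunoproteasome subunit whose gene lies in the same stretch of chromosome 17, differed by 0.80 ± 0.10 and 0.77 ± 0.10. Psmb9, its partner subunit, differed by 0.74 ± 0.06 and 0.67 ± 0.06. B2m, the light chain that pairs with class I heavy chains, was higher by 0.52 ± 0.06 and 0.32 ± 0.06. Erap1, which trims peptides to length, was higher by 0.42 ± 0.11 and 0.35 ± 0.11, but its call was lost in 3 of 23 alternatives on the control diet (1 of them without SAM/R-1 control replicate 3) and in 15 of 23 on the CCH diet (11 of them by leaving out 1 array). The median over the 17 was 0.08 and 0.11, against -0.01 and -0.02 over all genes.

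Of 17 tested class I transcription genes, 4 were called higher on the control diet, 3 on the CCH diet and 0 lower. Irf7, an interferon regulatory factor, differed by 1.78 ± 0.27 and 1.64 ± 0.27, with 3 of 4 SAM/R-1 arrays of each diet well above background. Irf9, a further interferon regulatory factor, differed by 0.44 ± 0.10 and 0.39 ± 0.10. The interferon-induced list had 16 of 21 genes called higher on each diet and 0 lower. Of 3 tested class I receptor genes, Pirb, the PirB receptor, was higher in SAM/P-8 by 1.49 ± 0.23 and 1.22 ± 0.23. Klrd1, the CD94 chain that pairs with NKG2 to read Qa-1, was lower, at -1.34 ± 0.17 and -1.57 ± 0.17, with 2 of 4 SAM/P-8 arrays of each diet well above background. Of 6 class II genes, which present peptides from outside the cell, 0 were called higher and 3 lower on the control diet and 2 on the CCH diet, among them H2-DMa at -0.26 ± 0.08 and -0.32 ± 0.08. Its control diet call was lost in 11 of 23 alternatives, 8 of them by leaving out 1 array, and its CCH diet call in 1. With the normexp background, Irf7, Pirb and Klrd1 differed by 0.63, 0.83 and -0.48 on the control diet and 0.20, 0.46 and -0.74 on the CCH diet and were not called. Class I heavy chains outside the 10 genes had 3 tested: H2-Q8 differed by -0.39 ± 0.09 and H2-T22 by 0.34 ± 0.09 on the control diet, where its other tested probes lay between -0.05 and 0.06. The H2-T22 call on the control diet was lost in 6 of 23 alternatives, 5 of them by leaving out 1 array. The 7 pathway lists had 0 limma calls for CCH in either strain alone, where 0.766% of all genes were called in SAM/P-8 and 0.104% in SAM/R-1. Of their 71 tested genes, 17 and 6 had an unadjusted p under 0.05 in the respective strains, where 18.4% and 11.2% of all genes did. In the effect averaged over strains, B2m was at -0.17 ± 0.04 (limma adjusted p = 0.046), Irf9 at 0.32 ± 0.07 (limma adjusted p = 0.0268), Rela, an NF-kappa-B subunit, at 0.20 ± 0.05 (limma adjusted p = 0.0481) and Cd3e, a T cell receptor chain, at -0.75 ± 0.16 (limma adjusted p = 0.0288), where 4.15% of all genes were called. The call of B2m was lost in 18 of 22 alternatives. Of these, 14 left out 1 array (any but SAM/P-8 control replicates 1 and 4). That of Rela was lost in 19 of 22, of which 15 left out 1 array (any but SAM/P-8 control replicate 1). The Irf9 call was lost in 5 of 22. These were without SAM/P-8 CCH replicate 1, SAM/P-8 control replicate 2 or 3, SAM/R-1 CCH replicate 1 or SAM/R-1 control replicate 3. The Cd3e call was lost in 6 of 22, and its limma adjusted p reached 0.741. Of the 6, 5 were without SAM/P-8 CCH replicate 1, SAM/P-8 control replicate 3, SAM/R-1 CCH replicate 1 or SAM/R-1 control replicate 3 or 4.

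Along the chromosome, strain calls ran both ways in the stretch that holds the 10 genes. From H2-K1 to H2-M3 the reference gene order has 264 genes, of which 98 had a tested probe. With the 10 members left out, 88 genes remained, of which 34.1% were called between the strains on each diet, 12 higher and 18 lower on the control diet and 14 and 16 on the CCH diet. The 545 tested genes on the rest of chromosome 17 had 15.2% and 17.2% called, and all genes 12.8% and 12.6%. These shares are descriptions, since the stretch was marked out by genes chosen on the same contrast and neighbours are not independent. By the size of the fitted difference averaged over both diets, the 6 non-member genes named were H2-Ob, Col11a2, Lst1, Ly6g6e, Gpank1 and C2. H2-Ob and Lst1 were not well above background in 1 or more groups, so their differences have only a bound there and their place among the 6 is not settled. H2-Ob, a class II chain that modulates peptide loading, was not well above background on any SAM/P-8 array and was at least 1.27-fold lower there on the control diet and at least 1.44-fold lower on the CCH diet, a bound set by the dimmest probes well above background. Col11a2, a cartilage collagen chain, differed by -1.25 ± 0.08 on the control diet and -1.01 ± 0.08 on the CCH diet. Lst1, a leukocyte transcript, was not well above background in SAM/R-1 on the control diet. There it was brighter in SAM/P-8 by at least 2.14-fold, a bound that holds for the processed signal only. On the CCH diet, where 3 of 4 SAM/R-1 arrays were well above background, it differed by 0.83 ± 0.12. With the normexp background the Lst1 difference was 0.28 on the control diet and -0.16 on the CCH diet, and neither was called. Gpank1, a G-patch protein, differed by 0.81 ± 0.06 on the control diet and 0.81 ± 0.06 on the CCH diet. Ly6g6e and C2, a complement component, were not called, with differences on the control diet of -0.97 ± 0.39 and -0.87 ± 0.32. Within the stretch, Atp6v1g2 and Ddx39b stand side by side at places 116 and 117 and Tcf19 at place 141, with class I genes on either side.

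**Figure D5:**
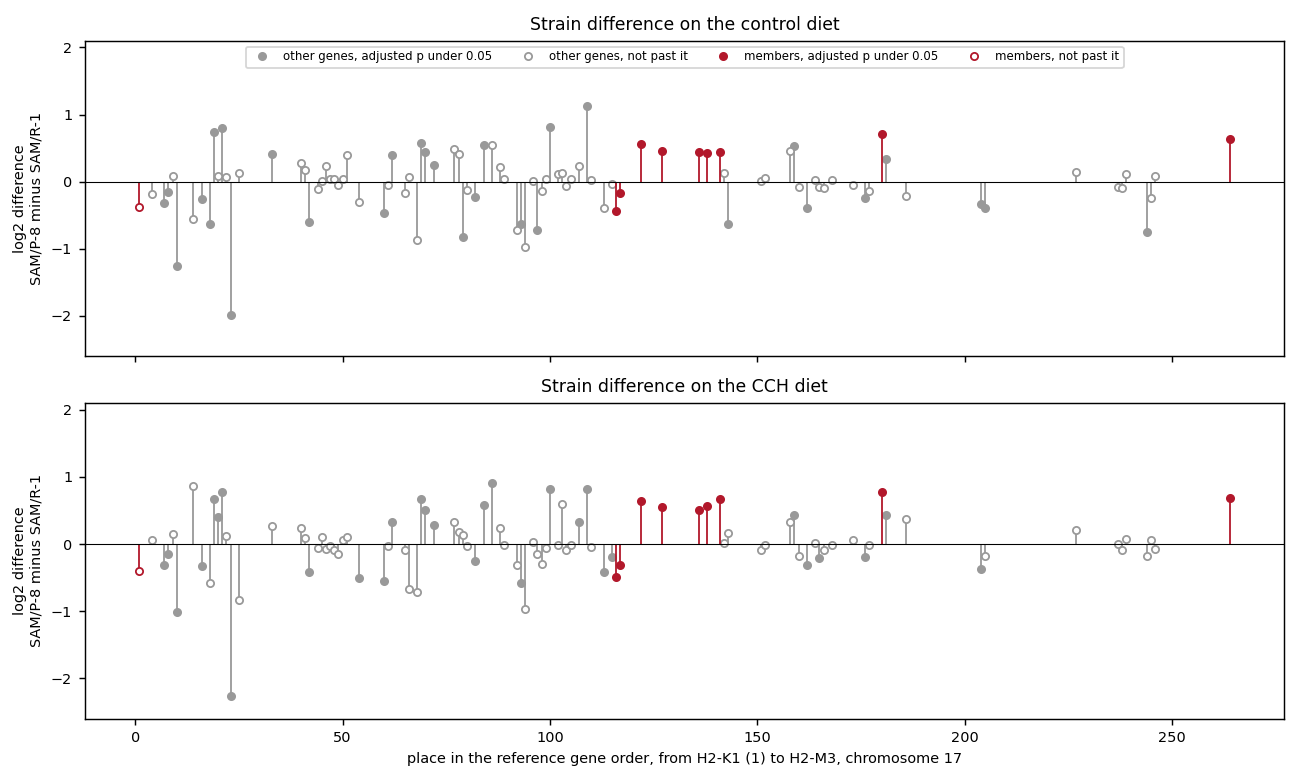
Strain difference (log2, SAM/P-8 minus SAM/R-1) of tested genes by place in the reference order from H2-K1 to H2-M3, 1 probe per gene, with the control diet above and the CCH diet below, members in red and filled points past an adjusted p of 0.05. Members and other genes lie on both sides of 0, and H2-K1 is shown by its brightest probe, A_51_P198434, which is below 0.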

How the data were processed

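Total RNA of hippocampus was labelled with Cy3 and read on 16 one-colour Agilent arrays, per the labels' protocols. The deposited scanner tables hold, per the file headers, a processed signal intensity per spot and other flags for spots well above background or non-uniform, made with Agilent Feature Extraction. The authors' deposited table of log2 values was centred per probe, as a comparison with the scanner values showed (r of at least 0.9998 on each array, column medians -0.04 to 0.04), and served as an alternative.

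Non-uniform and control spots were left out, spots of a probe were averaged on the log2 scale, and the 75th percentile of each array was subtracted. A probe was tested if some group had all 4 of its arrays well above background, which kept 29003 and left out 12171. Group means over 16 arrays were fitted with limma 3.58.1 in R 4.3.3, with Benjamini-Hochberg adjustment over all tested probes and a threshold of 0.05. Precision is limited by the number of arrays. The fit was tested on simulated data.

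The members and all 18 gene lists were chosen with earlier results of these data known. Named genes are all 10 members with every probe, up to 4 genes per other list, 6 along the interval and the 5 most alike within groups. Alternatives were the normexp background with offset 50, quantile normalization, a percentile over probes detected on all arrays, no filter on dim probes, the authors' values, the replicate number as a block, only the 8 arrays compared, and leaving out each array. The normexp alternative used median spot signals. The class I and transcript names are those of the array's design, which is older than the RefSeq promoters of GRCm38.p6.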

Additional observations from a re-analysis of the deposited data

Results flagged for a closer look

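Of 80 sets of 4 arrays examined, 1 for each of the 20 probes in each group, 3 held an array far from the other 3, and chance marks about 1 in 20 such sets. All 3 were H2-Q10 probes. A_52_P428354 read -2.58 on SAM/P-8 control replicate 1, where the rest of the group lay between -3.04 and -2.97. A_51_P230267, not well above background on any array, read -7.72 on SAM/P-8 CCH replicate 4, against -8.01 to -7.96. A_51_P230269, also not well above background, read -8.49 on SAM/R-1 control replicate 1, against -8.22 to -8.20.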

How the results depend on the processing

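No called value of a member probe changed direction under any alternative. With the normexp background, 1057 probes were called between strains on the control diet (8 of them members, against 3997 and 13) and 941 on the CCH diet (11 of them members, against 3900 and 13). Member calls lost on the control diet were those of H2-Q2 A_51_P219789, H2-Q7, H2-Q10 A_51_P496997, H2-M3 and Ddx39b A_51_P388099. On the CCH diet they were those of H2-M3 and Atp6v1g2 A_51_P128885. The Lst1 difference on the CCH diet turned to -0.16, and the strain calls of Irf7, Pirb, Klrd1, H2-Q8, H2-Ob, Erap1 and H2-DMa on both diets, of Lst1 and H2-T22 on the control diet and of Irf9 on the CCH diet were lost. The same setting called 1 probe for CCH in SAM/P-8 (240 otherwise), 0 in SAM/R-1 (33), 310 averaged over strains (1207) and 0 for the interaction (47). For CCH in SAM/P-8, quantile normalization gave 134, no filter on dim probes 154, the replicate block 130 and only the 8 arrays compared 28. The average gave 3257 with no filter, and CCH in SAM/R-1 gave 20 with the block. Member strain calls on the control diet also fell to 11 with quantile normalization, with no filter and with only the 8 arrays compared. With the percentile over probes detected on all arrays they fell to 12. In these settings the member strain calls on the CCH diet stayed at 13. The averaged Ddx39b call went to 0 with normexp, with quantile normalization and with the replicate block.

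Leaving out 1 array gave 2975 to 4518 strain calls on the control diet (members 9 to 13) and 2823 to 4153 on the CCH diet (members 13 to 13). For CCH it gave 53 to 415 in SAM/P-8 and 2 to 45 in SAM/R-1, with 0 members in each, and 302 to 2118 averaged over strains (members 0 to 1). The interaction gave 35 to 54 (members 0 to 0). The lowest member count on the control diet came without SAM/P-8 control replicate 1. Numbers did not pair the samples: 6 of 24 same-numbered pairs of arrays correlated above 0.1 (range -0.249 to 0.303), and 3 of 16 arrays correlated best with their own number. The cause of these changes was not tested. Dim probes, 3 of the 20, limit what can be said of H2-Q10 and H2-M3.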
